A study of Homo sapiens with 18 samples.

Results

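The genes described here are 8 transcripts in common use as reference genes, the transcripts against which the amount of another RNA is expressed in a PCR assay. They are HPRT1, ZMYM4, ACTB, TBP, YWHAZ, PPIA, SDHA and TUBB, found by gene symbol in a whole transcriptome RNAseq table of 38055 genes. HPRT1 and ZMYM4 were internal controls in the RT-qPCR of the same study, and the other 6 are widely used in other work. All 8 were well above the limit set for testing, which asked for 10 normalized reads or more in 3 or more of the 6 libraries. A reference gene is meant to keep its level, and between the days compared ACTB, SDHA and PPIA did not.

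RT-qPCR reads a target RNA as a number of cycles relative to a reference RNA in the same tube of cDNA, and 1 cycle corresponds to a difference of 1 on the log2 scale. A reference transcript that itself moves between conditions passes its own change, with the opposite sign, to each target read against it. Common reference genes are drawn from basic functions such as the cytoskeleton, protein folding, energy metabolism, nucleotide salvage and transcription, and each of these functions can respond to growth state.

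The study grew wild-type HCT116 cells, a line derived from a human colorectal carcinoma, in flat culture and took whole cell RNA as cell density rose. The 6 libraries used here are 3 biological replicates from day 3, at 50% confluency, and 3 from day 5, at 250% confluency, where cells lie in several layers. Day in culture and density changed together, so they cannot be told apart, and all libraries come from a single cell line. The question put to the reference genes is whether their level differs between low and high density.

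The libraries were made from RNA depleted of ribosomal RNA, and the number of reads counted on genes was between 27470978 and 56689369 on day 3 and between 31403756 and 33661896 on day 5. Values are given as normalized reads, which are reads divided by 1 size factor for each library. The labelled cell type was checked with markers of epithelium. EPCAM had a mean of 7227 normalized reads on day 3 and 7236 on day 5, and the villus marker VIL1 was near 0, with means of 2.65 and 2.80. The other 4 epithelial markers were expressed on both days and were called higher on day 5, beside 31.1% of all genes tested. CDH1 rose by 2.63, KRT19 by 1.98, KRT8 by 1.05 and KRT18 by 0.93 on the log2 scale. Their part in the results was not tested. Of the markers of blood and fibroblasts, PTPRC, CD3E and DCN had means below 2 on both days and COL1A2 had means of 19.9 and 15.5. Replicates of a day differed from each other by more than the sampling noise of their reads. Chi-square per degree of freedom was 11.1 to 22.0 between day 3 replicates and 4.1 to 5.5 between day 5 replicates, a measure that grows with read depth. By Pearson correlation of log2 values, day 3 replicates 1 and 2 were the closest pair (0.993). Day 3 replicate 3 was the least like the others of its day (0.988 and 0.989), and day 5 pairs had 0.992.

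Of the 8 reference genes, 3 differed on day 5 from day 3 with an adjusted p under 0.05 (limma on log2 of the value plus 1, Benjamini-Hochberg over all 20129 genes tested). ACTB and SDHA rose and PPIA fell. Over all genes tested, 59.9% were called, 31.1% as higher and 28.7% as lower, so the 37.5% called among the reference genes is read against a background in which most genes moved. DESeq2 and edgeR on the recovered reads called the same 3, beside 44.9% and 61.6% of the genes they tested. Missing the threshold does not show that a level stayed the same, and each interval is therefore given. An interval that lay wholly within 0.5 of 0 on the log2 scale was counted as within the band, which means less than 0.5 of a PCR cycle in either direction. The 95% confidence intervals of HPRT1, ZMYM4, TBP, YWHAZ and TUBB lay within it, against 18.9% of all genes tested, or 14.0% when genes that were called are left out of the count. These limma intervals borrow variance from all genes. The interval of TUBB, whose day 3 libraries differed by 1.48 times, reached 0.52 and so left the band without day 5 replicate 2. The median absolute log2 fold change was 0.13 for the 8 reference genes and 0.51 for all genes tested. All genes tested include weakly expressed ones, whose intervals can be wide, and these comparisons were not matched for expression level. Values are relative to the other RNA of a library, so a change in RNA per cell is not measured, and fewer cells of a type and less RNA per cell cannot be told apart.

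**Figure D1:**
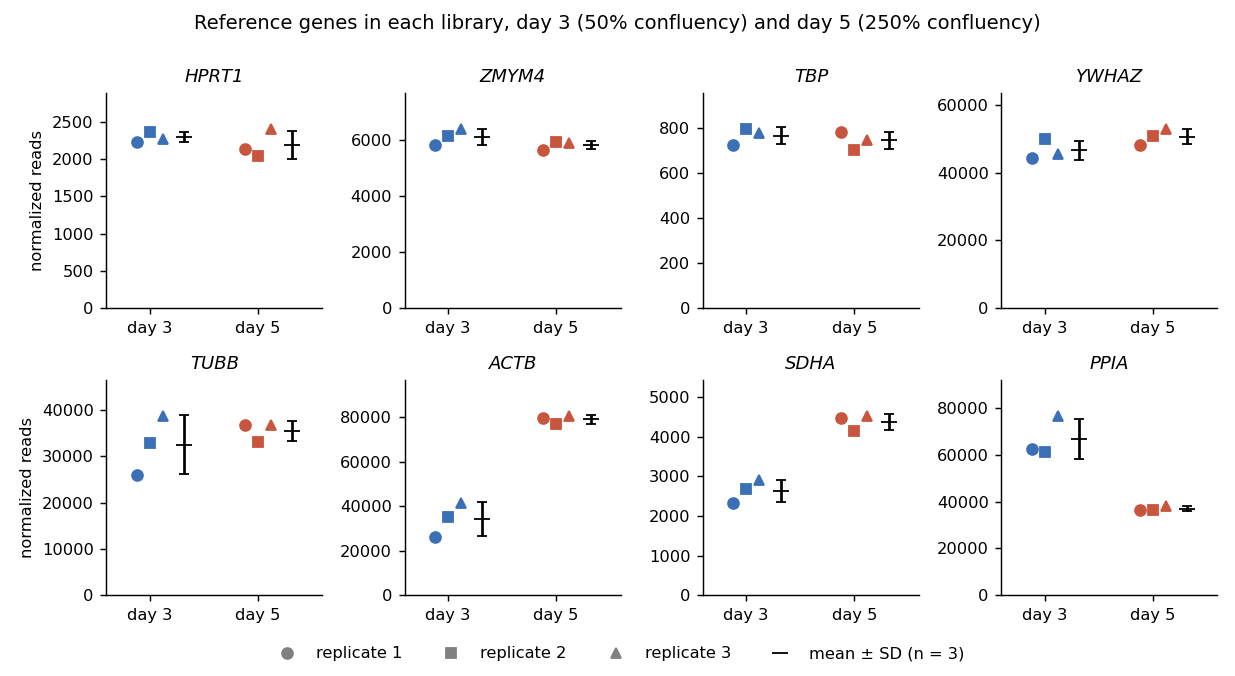
Normalized reads of the 8 reference genes in each library of day 3 (blue) and day 5 (red), with a symbol for each replicate and the mean ± SD of 3 libraries in black; each vertical axis starts at 0. Days overlap for HPRT1, ZMYM4, TBP, YWHAZ and TUBB, whereas ACTB and SDHA are higher and PPIA is lower in each day 5 library.

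HPRT1 encodes the enzyme that returns hypoxanthine and guanine to the purine nucleotide pool, and its gene lies on chromosome X (chrX:134460165-134520513, plus strand, GRCh38). It was read at 2239, 2372 and 2279 normalized reads in the 3 day 3 libraries and at 2133, 2042 and 2406 in the 3 day 5 libraries. The days overlapped, and the highest and the lowest of the 6 values were both on day 5. The log2 fold change was -0.07 (SE 0.0789, 95% confidence interval -0.24 to 0.10, adjusted p = 0.469, limma). HPRT1 reads numbered between 1608 and 3837 per library, for which counting alone gives a coefficient of variation of 1.61% to 2.49%, and the coefficient of variation over the 6 normalized values was 6.21%.

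ZMYM4, a zinc finger protein of the MYM family, lies on chromosome 1 (chr1:35268709-35422058, plus strand). Its values were 5822, 6152 and 6392 on day 3 and 5647, 5914 and 5892 on day 5. The highest value was on day 3 and the lowest on day 5, with an overlap between the days. Its log2 fold change was -0.07 (SE 0.0719, interval -0.23 to 0.08, adjusted p = 0.403, limma). The coefficient of variation over 6 libraries was 4.41%, the lowest of the 8 reference genes, and 0.924% of all genes tested had a smaller one. The median over genes tested was 25.9%, and neither figure over all genes was matched for expression level.

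Of the 14 other genes of purine synthesis and salvage that were tested, 3 rose and 8 fell, beside 31.1% called higher and 28.7% called lower over all genes tested. The 2 largest changes in each direction were a fall of ADSL, adenylosuccinate lyase, by 1.17 on the log2 scale, a fall of PRPS1, which makes the ribose phosphate donor, by 1.07, and the rises of PFAS (0.75) and IMPDH1 (0.57). The other salvage enzyme for a free base, APRT, had a log2 fold change of 0.06 (interval -0.19 to 0.31). Of the 5 relatives of ZMYM4 tested, ZMYM3 rose by 1.52 and ZMYM2 by 0.24 on the log2 scale, ZMYM1 fell by 0.36, and ZMYM5 and ZMYM6 were not called. These 3 of 5 called are near the 59.9% of all genes tested.

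TBP, the TATA-binding protein of the general transcription machinery, was the least expressed of the 8 (chr6:170554302-170572870, plus strand). It was read at 725, 796 and 778 normalized reads on day 3 and at 782, 704 and 749 on day 5. Neither day stood above the other. The log2 fold change was -0.04 (SE 0.0845, interval -0.22 to 0.14, adjusted p = 0.694, limma), with a sign that turned to 0.03 when each library was divided by its own total. Counting error was largest for this gene, since between 549 and 1287 reads per library give a coefficient of variation of 2.79% to 4.27% by counting alone, and the 6 values had one of 4.74%.

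TBP works with TBP-associated factors and general factors, and of 16 such genes tested 5 rose and 9 fell, beside 31.1% called higher and 28.7% called lower over all genes tested. The rises were led by TAF4 (1.01) and TAF6 (0.78) and the falls by GTF2A2 (-1.28), which encodes the small TFIIA chain, and TBPL1 (-1.12), a relative of TBP. TAF5 (-0.04) and TAF3 (0.18) were not called. The level of TBP itself thus differed less between days than that of 15 of these 16 genes by absolute log2 fold change, TAF5 being the exception.

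YWHAZ encodes the zeta chain of the 14-3-3 proteins, adaptors that bind phosphorylated partners, and lies on chromosome 8. Its values were 44400, 49851 and 45404 on day 3 and 48215, 50730 and 52833 on day 5. Day 5 was the higher on average, and 1 day 3 library lay within the day 5 range. On the log2 scale the fold change was 0.12 (SE 0.0960, interval -0.08 to 0.33, adjusted p = 0.295, limma). Within the 14-3-3 family, SFN, the epithelial sigma form, rose by 1.32 and YWHAG by 0.50 on the log2 scale, YWHAQ fell by 0.38, and YWHAB, YWHAE and YWHAH were not called, so 3 of 6 were called beside 59.9% of all genes tested.

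ACTB, the cytoplasmic beta actin, had the largest change of the 8 (chr7:5526409-5563902, minus strand). It was read at 26314, 35276 and 41216 normalized reads on day 3 and at 79545, 76811 and 80448 on day 5. Each day 5 value exceeded each day 3 value, and 65.0% of all genes tested likewise had no overlap between the days, in one direction or the other. The log2 fold change was 1.23 (SE 0.136, interval 0.94 to 1.52, adjusted p = 1.7e-06, limma), or 2.34-fold. It was the only member of the 8 that was both called and changed at least 2-fold, against 18.4% of all genes tested. The day 3 libraries spread widely, with the highest 1.57 times the lowest, while the day 5 libraries differed by at most 1.05 times.

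The other cytoplasmic actin moved the same way. ACTG1 rose from a mean of 59411 ± 14278 (SD, n = 3) to 159516 ± 5020 normalized reads, a log2 fold change of 1.45 (SE 0.149, adjusted p = 7.98e-07, limma). ACTB and ACTG1 encode near-identical proteins and have similar coding sequences. Reads of one may be counted for the other, which was not tested. The sum of ACTB and ACTG1 was 2.55 times higher on day 5. ACTA2, the smooth muscle form, rose by 1.23 on the log2 scale from a low level, ACTA1 was not called, and ACTC1 and ACTG2 were below the limit for testing.

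TUBB is a widely expressed beta tubulin, a building block of microtubules (chr6:30717435-30725538, plus strand). Its values were 26080, 32810 and 38726 on day 3 and 36751, 33053 and 36828 on day 5. Both the lowest and the highest of the 6 were day 3 libraries, which differed by 1.48 times. TUBB had a log2 fold change of 0.14 (SE 0.124, interval -0.12 to 0.41, adjusted p = 0.335, limma), and its value turned on single day 3 libraries. Without day 3 replicate 1 it was -0.01 (adjusted p = 0.963), and without day 3 replicate 3 it was 0.28 (adjusted p = 0.00470), past the threshold. The coefficient of variation over 6 libraries was 13.3%, the largest among the 5 that were not called. Of 6 other beta tubulins tested 5 rose, beside 31.1% of all genes tested, with TUBB4A at 1.36, TUBB3 at 0.51 and TUBB4B at 0.35 on the log2 scale, and TUBB2B was not called.

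ACTB, TUBB, SDHA and ZMYM4 had replicate 1 as the lowest and replicate 3 as the highest of the day 3 libraries. The log2 ratio of ACTB to TUBB had an SD of only 0.0492 over the 3 day 3 libraries, although both ACTB and TUBB varied by about 1.5 times there. That ratio then differed by 1.08 between the days.

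SDHA encodes the flavoprotein of succinate dehydrogenase, which is complex II of the respiratory chain and also an enzyme of the citric acid cycle (chr5:218303-257082, plus strand). It was read at 2329, 2673 and 2899 normalized reads on day 3 and at 4467, 4147 and 4524 on day 5. All day 5 libraries lay above the day 3 libraries. SDHA had a log2 fold change of 0.74 (SE 0.0855, interval 0.56 to 0.92, adjusted p = 2.72e-06, limma), or 1.67-fold.

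Of the other 7 genes of complex II and its assembly, 5 fell and 0 rose, beside 28.7% called lower and 31.1% called higher over all genes tested. SDHB, the iron-sulfur subunit, was read at 5608 ± 895 (SD, n = 3) on day 3 and at 2644 ± 142 on day 5, and fell by 1.07 on the log2 scale (SE 0.0982, adjusted p = 2.40e-07, limma). The membrane anchors SDHC and SDHD fell by 0.58 and 1.11, and the assembly factors SDHAF2 and SDHAF3 by 0.57 and 1.26, while SDHAF1 and SDHAF4 were not called. The 4 structural subunits of the complex thus split into SDHA, which rose, and the other 3, which fell.

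PPIA, cyclophilin A, is an abundant peptidyl-prolyl isomerase that helps proteins fold (chr7:44796680-44824564, plus strand). It was read at 62665, 61134 and 76605 normalized reads on day 3 and at 36463, 36454 and 38063 on day 5. Each day 5 library was below each day 3 library, and the day 5 values lay within 1.04 times of each other. PPIA had a log2 fold change of -0.85 (SE 0.106, interval -1.07 to -0.62, adjusted p = 6.09e-06, limma), which is a level 1.80 times lower. Among 12 other cyclophilins tested, 10 fell and 1 rose, beside 28.7% called lower and 31.1% called higher over all genes tested. PPIL1 and PPIH fell by 1.31 and 1.01 on the log2 scale, PPIB, the form of the endoplasmic reticulum, fell by 0.40, and PPIL2 rose by 0.75.

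Reads of some reference genes can come from pseudogenes or be counted on them. PPIA has 75 listed pseudogenes in the table, ACTB 11, YWHAZ 8, TUBB 7, SDHA 3 and HPRT1 1, matched by gene identifier to GENCODE, and none were listed for ZMYM4 and TBP. A stretch of 30 coding bases of PPIA (bases 269 to 298 of the coding sequence, counted from its first base) and of SDHA (bases 6 to 35), from GENCODE release 44 transcripts, is shown with the matching stretch of the pseudogene that took the most reads, to show the pairs between which reads have to be told apart. Capitals mark the bases that differ.
PPIA: taaagcatacGggtcctggcatcttgtcca
PPIAP22: taaagcatacAggtcctggcatcttgtcca
SDHA: gggggtccggGgcctgtcgcggctgctGag
SDHAP4: gggggtccggAgcctgtcgcggctgctAag

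PPIAP22, on chromosome 21 (chr21:18857779-18858276, plus strand), was identical to the PPIA coding sequence at 496 of 498 bases. SDHAP4 could be aligned to 766 of the 1995 coding bases of SDHA and was identical at 734 of them. Of all windows of 100 bases in the PPIA coding sequence, 64.2% were found letter for letter in at least 1 of its pseudogenes. The same share was 31.5% for YWHAZ, 10.6% for TUBB, 3.80% for SDHA, 0.292% for ACTB and 0% for HPRT1. Reads on pseudogenes made up 8.24% to 9.17% of the summed reads of PPIA and its pseudogenes in the 6 libraries. Of 29 PPIA pseudogenes tested, 18 were called lower and 0 higher, beside 28.7% and 31.1% of all genes tested, with a median log2 fold change of -0.82, close to that of PPIA itself. How much of this signal is RNA of PPIA was not tested. Summed with its pseudogenes, PPIA had a log2 fold change of -0.85.

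For SDHA a larger share of reads was counted on pseudogenes, and the share differed between days. Reads on SDHAP1, SDHAP3 and SDHAP4 made up 35.9% to 46.3% of the summed reads on day 3 and 28.01% to 31.6% on day 5. None of the 3 pseudogenes was called. SDHAP4, on chromosome 3 (chr3:197619740-197627848, minus strand), was read at 824, 793 and 646 normalized reads on day 3 and at 686, 751 and 708 on day 5, with a log2 fold change of -0.07 (interval -0.28 to 0.14). SDHAP1 had 0.11 and SDHAP3 -0.14. Summed with these 3, SDHA rose by 0.47 on the log2 scale (interval 0.32 to 0.62, adjusted p = 3.13e-05, limma), or 1.38-fold, against 1.67-fold alone. All 3 are annotated as transcribed pseudogenes, with 15 exons for SDHAP1 and 6 each for SDHAP3 and SDHAP4. How much of their signal is RNA of SDHA was not tested, so the sum is not a second estimate of the change of SDHA.

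**Figure D2:**
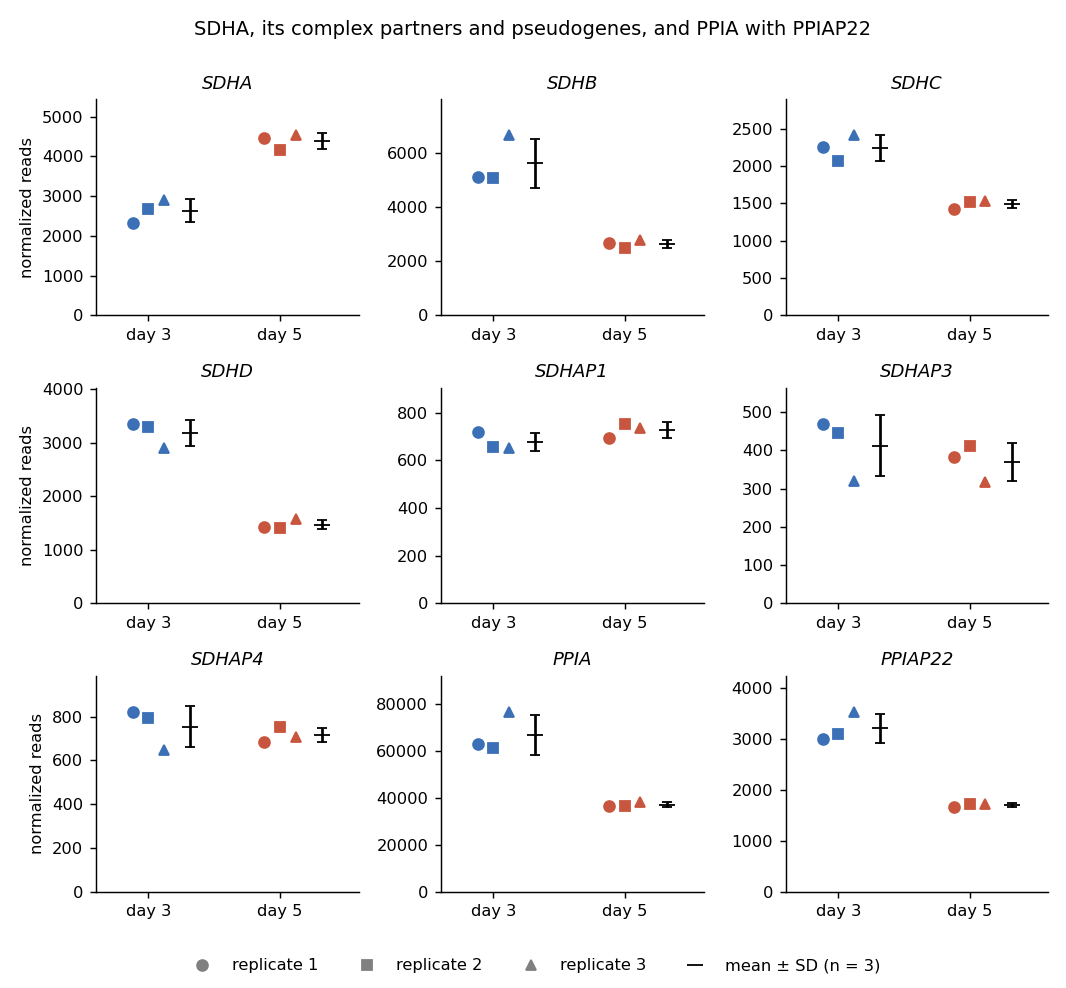
Normalized reads of SDHA, the other 3 subunits of complex II, the 3 SDHA pseudogenes in the table, PPIA and PPIAP22 in each library of day 3 (blue) and day 5 (red), with the mean ± SD of 3 libraries in black. SDHA is higher on day 5, SDHB, SDHC and SDHD are lower, the SDHA pseudogenes overlap between days, and PPIAP22 is lower on day 5 like PPIA.

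A ratio of 2 genes in the same library does not depend on how libraries are scaled to each other, so the 28 pairs of reference genes were compared by their log2 ratios. In 20 of the 28 pairs the ratios of day 3 and day 5 did not overlap, beside 61.6% of all pairs of tested genes. The smallest difference between days was that of HPRT1 to ZMYM4, whose mean log2 ratio was -1.41 on both days, a difference of 0.0036. Ratios of HPRT1 to TBP (-0.03), ZMYM4 to TBP (-0.03) and YWHAZ to TUBB (-0.02) differed by nearly as little. Each of these 4 differences was smaller than the SD of the same ratio within either day.

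Among the 10 pairs of the 5 genes that were not called, 2 did not overlap. HPRT1 and ZMYM4 were each lower relative to YWHAZ on day 5, both by 0.19 on the log2 scale, which is 1.14 times. All 15 pairs of a called and an uncalled gene and all 3 pairs of called genes did not overlap, beside 61.6% of all pairs of tested genes. The calls came from the same 6 libraries, so these counts follow largely from the calls and are a description. The largest difference was that of ACTB to PPIA, whose mean log2 ratio went from -0.98 to 1.09, a difference of 2.07 or 4.21-fold. With 3 libraries against 3, the two-sided exact permutation test cannot give p below 0.1, and each pair without overlap had that p (0.14 adjusted over the 28 pairs).

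**Figure D3:**
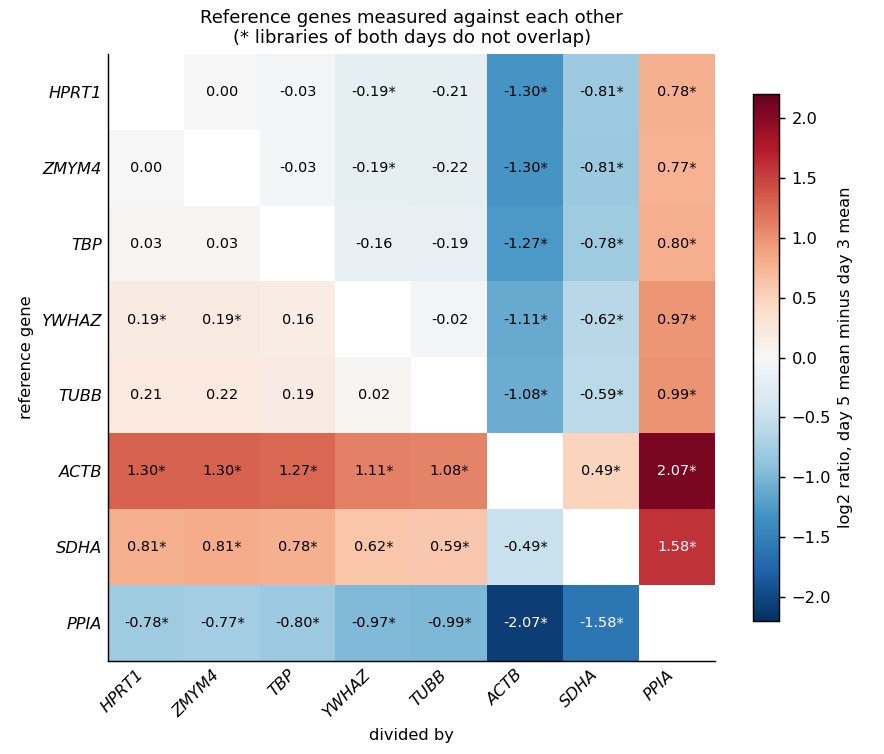
Day 5 mean minus day 3 mean of the log2 ratio of each reference gene (vertical) to each other one (horizontal), in colour and digits, with an asterisk where the 3 ratios of day 3 and the 3 of day 5 do not overlap. The block of HPRT1, ZMYM4, TBP, YWHAZ and TUBB holds differences of at most 0.22 in size, and ACTB against PPIA has the largest, 2.07.

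The mean SD of a gene's log2 ratios to the other 7 over all 6 libraries, known as the geNorm M value, is lower for a gene that keeps its proportion to the others. It was 0.296 for TBP, 0.300 for ZMYM4, 0.301 for YWHAZ, 0.307 for HPRT1 and 0.324 for TUBB. SDHA had 0.456, PPIA 0.637 and ACTB 0.694. The first 4 values are close to each other, and no order among them is read from these libraries.

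The reference genes covered a wide range of levels, compared here as normalized reads per kilobase of the canonical transcript. On day 3 the order was PPIA at 29862, ACTB at 18912, TUBB at 12938, YWHAZ at 9290, HPRT1 at 1646, SDHA at 978, ZMYM4 at 831 and TBP at 413. The libraries of ACTB and TUBB overlapped, as did those of SDHA and ZMYM4. On day 5 the order was ACTB at 43562, PPIA at 16537, TUBB at 14133, YWHAZ at 10096, SDHA at 1626, HPRT1 at 1573, ZMYM4 at 790 and TBP at 401, with an overlap of SDHA and HPRT1 only. ACTB and PPIA exchanged the first place. The mean of SDHA lay above that of HPRT1 on day 5, but with that overlap no order of SDHA and HPRT1 is read for day 5. Whether reads in introns were counted is not given in the sources used here, and libraries depleted of ribosomal RNA can hold unspliced RNA, so levels of genes with long introns such as ZMYM4 carry that uncertainty.

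Another 33 genes in common use as references were tested beside the 8. Of these, 13 rose, 16 fell and 4 were not called, so 87.9% were called, beside 59.9% of all genes tested. The 2 shares were not matched for expression level, and small changes are called more readily in well expressed genes. The list was also chosen with earlier results of these data known, so a higher share is not read from it. The largest rises were those of the glycolytic enzyme GPI (2.69 on the log2 scale), the RNA polymerase II subunit POLR2A (1.72) and the glycolytic enzyme PGK1 (1.41). The largest falls were those of the splicing protein SNRPD3 (-1.06), the retromer subunit VPS29 (-1.01) and the transferrin receptor TFRC (-0.97). GAPDH (0.91), B2M (-0.91), RPS18 (-0.84) and RPLP0 (-0.71) changed as well. The smallest differences were those of IPO8 (0.04), CYC1 (-0.12) and ATP5F1B (-0.14), none of them called. The intervals of 5 of the 33 lay within the band, against 5 of the 8 genes described here and 18.9% of all genes tested. Those 5 of the 33 include a gene that was called lower, whereas the 5 of the 8 were all not called.

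**Figure D4:**
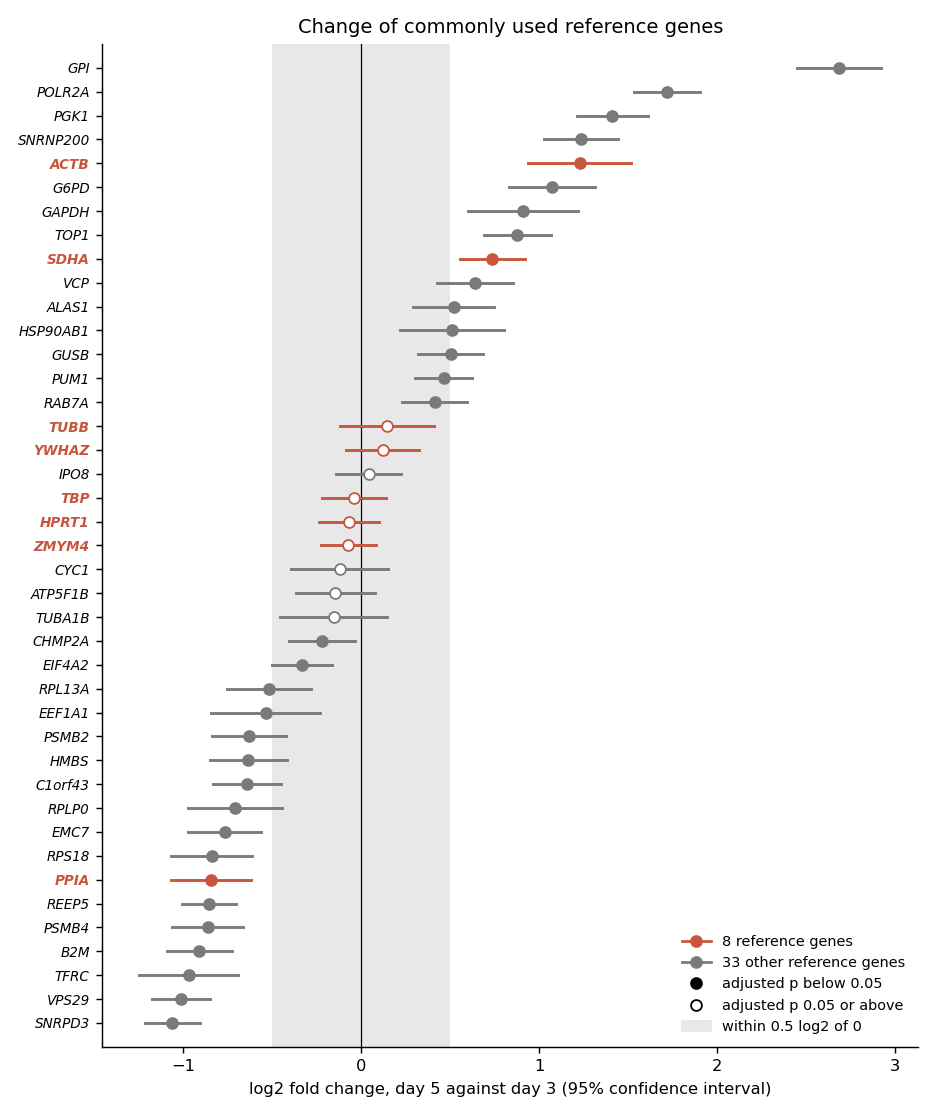
Log2 fold change of day 5 against day 3 with its 95% confidence interval for the 8 reference genes (red) and 33 others in common use (grey), sorted by value; filled points have an adjusted p below 0.05 and the grey band covers 0.5 on either side of 0. HPRT1, ZMYM4, TBP, YWHAZ and TUBB lie within the band with open points, and ACTB, SDHA and PPIA lie outside it.

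What the choice of a reference gene does to a reading was worked out for IGF1R, NOTCH3 and OLFML2A. The study also assayed these by RT-qPCR, but in comparisons other than day 5 against day 3. IGF1R is a growth factor receptor, NOTCH3 a receptor for ligands on neighbouring cells and OLFML2A a secreted protein of the olfactomedin family. On the deposited scale they rose by 1.81, 2.80 and 2.24 on the log2 scale. Read as a ratio to a reference gene, IGF1R was higher on day 5 by 3.68-fold relative to HPRT1, by 3.69-fold relative to ZMYM4, by 1.497-fold relative to ACTB, by 2.10-fold relative to SDHA and by 6.30-fold relative to PPIA. Over the 5 reference genes that were not called the range was 3.17 to 3.69-fold.

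NOTCH3 was higher by 6.31 to 7.33-fold over these 5 and by 2.98-fold relative to ACTB and 12.5-fold relative to PPIA. OLFML2A was higher by 4.26 to 4.96-fold over the 5, by 2.01-fold relative to ACTB and by 8.46-fold relative to PPIA. In each of the 24 ratios the lowest day 5 library exceeded the highest day 3 library. Of all pairs of tested genes, 61.6% had no overlap, in either direction. Each ratio had p = 0.1 by a two-sided exact permutation test, the smallest that 3 against 3 allows, and 0.1 adjusted over 24. The 24 ratios reuse the same 3 genes and 8 references, so they are not separate results. The study had picked these 3 genes partly for higher expression at high density, in RNAseq that included day 3 libraries. Each of the 3 rose by more than any of the 8 references, so the same direction with each reference follows from those changes. The size differed by 4.21 times between ACTB and PPIA.

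**Figure D5:**
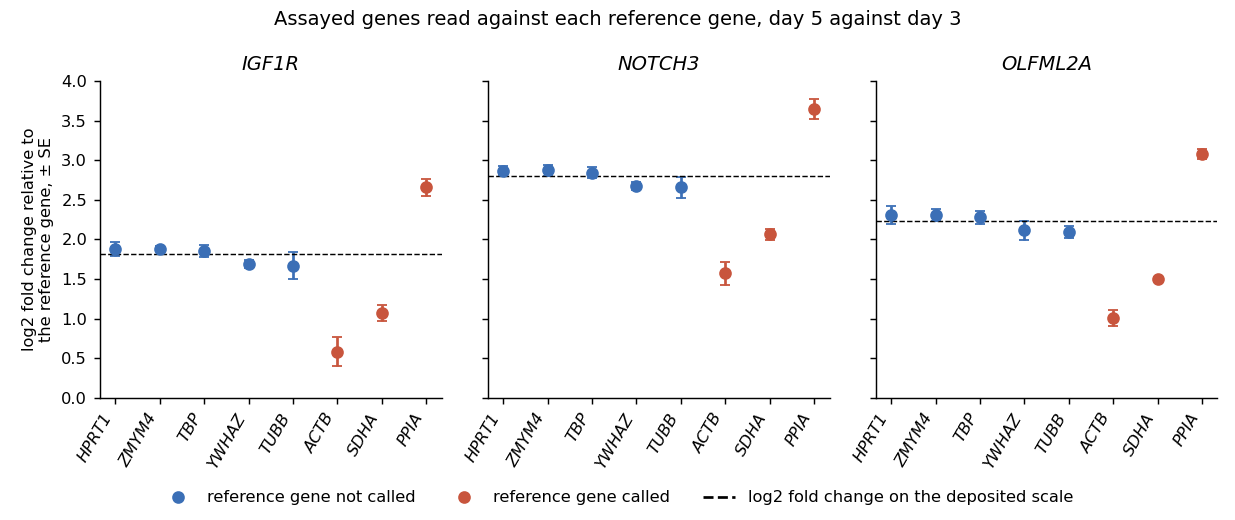
Log2 fold change of IGF1R, NOTCH3 and OLFML2A on day 5 against day 3 relative to each of the 8 reference genes, with the SE of the difference of 3 and 3 libraries; blue marks reference genes that were not called, red those that were, and the dashed line is the log2 fold change on the deposited scale. Values relative to the 5 uncalled genes lie near the line, those relative to ACTB and SDHA below it and those relative to PPIA above it. The distance from the line is the reference gene's own log2 fold change with the opposite sign, and so is the same in each panel.

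The RT-qPCR of the study named 1 more control, SNRNP200, the helicase of the U5 spliceosome particle. It rose from a mean of 10608 ± 1485 (SD, n = 3) to 24825 ± 496 normalized reads, a log2 fold change of 1.24 (SE 0.0978, interval 1.03 to 1.45, adjusted p = 5.56e-08, limma), about the same as that of ACTB. Relative to SNRNP200 alone, IGF1R was 1.49-fold, NOTCH3 2.96-fold and OLFML2A 2.00-fold higher on day 5. Relative to the geometric mean of HPRT1 and ZMYM4 the same genes were 3.68, 7.32 and 4.95-fold higher, and relative to the geometric mean of all 3 controls 2.72, 5.41 and 3.66-fold higher. These are ratios of RNAseq values, not of PCR measurements. They compare day 5 with day 3, whereas the study's RT-qPCR across densities used a later and denser day, so they do not give the error of its assays.

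The genes whose log2 values ran most closely with each reference gene over the 6 libraries were found among 12714 genes with a mean of at least 100 normalized reads. They were TENT4B and FBXW2 for HPRT1, KIDINS220 and LRRC1 for ZMYM4, RHOBTB3 for TBP, PIK3CA and TRIM5 for YWHAZ, and FKBP4 and SORD for TUBB, with Pearson's r between 0.955 and 0.995 as a description. For ACTB they were SNRPA and GATAD2A, for SDHA KANK2 and NFIL3, and for PPIA COX6B1 and NDUFB2, all with r above 0.99. Likeness to a gene that differed between the days was common, with 4091 genes above 0.9 for ACTB, 4159 for SDHA and 3662 for PPIA, and rarer for the others, with 18 for HPRT1, 124 for ZMYM4, 16 for TBP, 60 for YWHAZ and 195 for TUBB. The points share their library and its size factor.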

How the data were processed

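The authors trimmed paired-end reads and mapped them strand-specifically to ENSEMBL v99 genes of hg38 in CLC Genomics Workbench; the submitters' processing notes name FastQC 0.11.8 and MultiQC 1.7. Whether molecular identifiers were used to collapse reads is not given in the sources used here, so counting errors cover counting only. The deposited signal values are reads divided by 1 size factor per library, since 100% were whole multiples of 1 read (tolerance 0.01). The factors equal DESeq2's, which take most genes as unchanged, although the methods name TMM. The table's own fold changes and p-values, and miRNA tables, were not used.

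Of 38055 genes, 10653 took a missing symbol from the reference by identifier. Coordinates, transcripts and pseudogenes (member symbol, P and a number, by identifier) are from GENCODE release 44 (GRCh38). The entry with the symbol SDHAP2 has the identifier of MUC20-OT1 and was left out.

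limma 3.58.1 (R 4.3.3, with trend) was fitted to log2(value + 1) for genes with 10 or more in 3 or more libraries, with Benjamini-Hochberg adjustment and a threshold of 0.05; fold changes understate those of low genes. It was also run on simulated counts with far fewer changed genes than were called here and the same noise on both days. That run does not cover the conditions of these data. Alternatives were library totals, no filter, a pseudocount of 0.1, the replicate block, leaving out each library, a 2-fold minimum, and DESeq2 1.42.0 and edgeR 4.0.16 on recovered reads. Summing with pseudogenes was chosen after seeing the data. Python 3.11.15, pandas 2.3.3, numpy 2.4.6, scipy 1.17.1 and matplotlib 3.10.9 were used.

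The reference genes and lists were chosen with earlier results of these data known. Genes named are the 8, the assayed genes, SNRNP200, the largest rises and falls of each list (up to 3, or 2 for families), the 3 smallest changes among other references, close paralogs, pseudogenes, and the 2 genes of highest correlation with each (ENSG00000185928, with no symbol, is the other one for TBP); further genes were chosen after their values were seen. A gene of the list of other reference genes is not reported here.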

Additional observations from a re-analysis of the deposited data

How the results depend on the processing

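Of 169 values recomputed under alternatives, 165 kept their direction and their side of the threshold, or stayed within 1.5 times for a count. With a minimum of 2-fold, 1 of the 8 reference genes, ACTB, was called in place of 3. Under each other alternative run, ACTB, SDHA and PPIA were called in the same direction. With library totals, the log2 fold change of TBP was 0.025 in place of -0.041. Leaving out 1 library at a time gave TUBB values from -0.0059 to 0.28, with the call reached without day 3 replicate 3, and TUBB's interval reached 0.52 without day 5 replicate 2; the cause was not tested. With library totals, the median of all genes went from 0.01 to 0.08 on the log2 scale, and YWHAZ and TUBB then had adjusted p of 0.054 and 0.055 (limma).

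Samples with the same replicate number did not deviate together (correlations of -0.01, 0.03 and 0.02 over genes), so the numbers were not taken to pair them. The replicate block gave 11865 calls over all genes against 12055 without it, of which 11755 were shared, and changed no call among the reference genes. TBP, at 549 to 1287 reads per library, is the most limited by depth.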
